A study of Mus musculus with 6 samples.

Results

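The 8 microRNA genes described here were *Mir505*, *Mir206*, *Mir133b*, *Mir489*, *Mir31*, *Mir29a*, *Mir486* and *Mir1a-1*. MicroRNAs are short RNAs that bind messenger RNAs through their seed, the bases 2 to 8 of the mature strand, and lower the output of those messengers. Each is cut from a hairpin in a longer primary transcript, first by Drosha in the nucleus and then by Dicer in the cytoplasm. In skeletal muscle the microRNAs of *Mir1a-1*, *Mir133b* and *Mir206* are made mostly in differentiating cells and fibres, while *Mir489* and *Mir31* are known in mouse satellite cells (SCs), the stem cells of muscle, as genes of the quiescent state. *Mir505* was chosen by its difference between the genotypes, and the others were chosen as known muscle microRNA genes with results of that comparison in view. Their values are therefore given as a description, with no test. A member's value came from the probe set that names no second gene, or the brightest where there were several. That gave 7 of the 8 a value, out of 478 microRNA genes and 22180 genes in all. *Mir486* has 2 probe sets, both also annotated to another microRNA gene, and has no value here.

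The arrays compared *Slug*-/- SCs with *Slug*+/+ SCs, to ask what loss of the transcription factor Slug (gene symbol *Snai2*) changes in resting muscle stem cells. Both groups were adult male C57BL6 mice with uninjured hindlimb muscle, and 3 samples of each genotype were hybridised. *Slug*-/- mice lack Slug in every cell of the body, so their SCs developed without it, beside other tissues that also lacked it. Cells were sorted as CD45-, CD11b-, CD31- and Sca1-negative and CD34- and Integrin-α7-positive, and RNA was taken straight after sorting. Whole-transcript arrays read the primary transcript and hairpin of a microRNA gene, and mature strands were not measured separately. The replicates are biological by their labels, which leave unsaid whether 1 mouse or several gave each, so a p-value here speaks only of the spread between these samples, and 3 arrays a genotype limit the precision. In sorted bulk RNA, fewer cells of a type and less RNA per cell cannot be told apart.

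*Snai2* itself had levels on the log2 scale of 6.25, 6.66 and 6.53 in the *Slug*+/+ samples, and of 5.15, 5.10 and 4.59 in the *Slug*-/- samples, with no overlap. Nothing in the sources used here says whether its probes lie in the deleted part. The 10 SC markers, *Pax7* and *Calcr* among them, lay above background on every array, with mean levels of 8.14 to 8.62 in *Slug*+/+ and 8.40 to 8.60 in *Slug*-/- SCs. Of 12 myofibre markers 7 lay above background on every array and 4 below it, with mean levels of 3.98 to 4.09 and 3.95 to 4.14. The 2 measured erythroid markers lay below background on all arrays. The 6 blood markers averaged 3.003 to 3.218 and 2.809 to 2.894, with *Cd68* alone above background on all arrays and 3 below it on all. The 6 endothelial markers averaged 3.33 to 3.58 and 3.38 to 3.85, the 4 smooth muscle markers 4.95 to 5.997 and 5.70 to 6.02, the 4 fibro-adipogenic markers 5.42 to 5.64 and 5.47 to 6.01, and the 1 Schwann marker 3.50 to 3.98 and 3.57 to 4.10. Of all the markers, *Lum*, a matrix gene of fibro-adipogenic cells, was alone past a 2-fold change at an unadjusted p under 0.05. It was 1.05 higher on the log2 scale (limma, adjusted p = 0.858), at 3.64, 2.96 and 2.80 in *Slug*+/+ and 4.43, 4.92 and 3.20 in *Slug*-/- SCs. These arrays overlapped. The other measured fibro-adipogenic markers differed by -0.12 (*Pdgfra*), -0.10 (*Dcn*) and 0.06 (*Col1a1*). *Cd68*, a lysosomal gene of macrophages, fell short of the fold but did not overlap between genotypes, at 6.44, 6.86 and 6.09 in *Slug*+/+ SCs against 5.58, 5.34 and 5.58 in *Slug*-/- SCs, and was highest on *Slug*+/+ array 2, while *Ptprc*, *Itgam* and *Csf1r* were below background on every array. The part these cells play in the microRNA values was not tested.

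The sequences that carry these genes' names come from RefSeq (mouse, GRCm38.p6), where 7 of the 8 had a mature strand and 5 a hairpin. Strands of 6 members are shown, with the seed in capitals, so that they can be compared by seed. *Mir505* lies on chromosome X, on the minus strand, and both of its strands are shown because the comparison turns on it.
miR-505-3p: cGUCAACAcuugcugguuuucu
miR-505-5p: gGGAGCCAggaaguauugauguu
miR-206-3p: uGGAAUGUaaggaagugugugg
miR-133b-3p: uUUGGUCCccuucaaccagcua
miR-489-3p: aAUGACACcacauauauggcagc
miR-425-5p: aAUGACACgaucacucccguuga
miR-31-5p: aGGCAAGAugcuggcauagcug
miR-29a-3p: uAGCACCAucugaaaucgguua
miR-29b-3p: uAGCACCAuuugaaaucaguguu
The miR-489-3p seed was shared only with miR-425-5p among the 1738 mature strands of the table, and the miR-29a-3p seed with miR-29b-3p and miR-29c-3p. Within this table the miR-505-5p seed was shared with miR-7662-3p, and the miR-206-3p seed with miR-6349 and miR-6382. No other strand of the table held the seed of miR-505-3p, miR-133b-3p or miR-31-5p. The table has entries for 426 of the 478 microRNA genes measured here, so a seed partner without an entry could not be seen. For *Mir1a-1* the table holds the 5p strand but not the 3p strand, so a seed shared with that strand could not be seen. The miR-505-3p strand lies at chrX:60394416-60394437 and the miR-505-5p strand at chrX:60394451-60394473.

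The *Mir489* hairpin, with its 5p and then its 3p strand in capitals, lies at chr6:3721897-3722003 on the minus strand, inside the calcitonin receptor gene *Calcr*. It is shown because *Mir489* was, after *Mir505*, the member whose signal moved most between arrays.
Mir489: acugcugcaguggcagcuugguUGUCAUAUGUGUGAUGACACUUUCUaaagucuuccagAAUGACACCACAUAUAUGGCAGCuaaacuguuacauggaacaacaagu

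The levels are log2 expression values, and the olfactory receptor genes (*Olfr* symbols, 1089 measured), nearly all of which are known for their use in sensory neurons of the nose, served as a guide to background. Their median level was 1.71 and their 95th percentile 3.04, and a gene with a mean under that percentile is called here under background. Of the 478 microRNA genes, 152 (31.8%) had a mean above it, against 5.05% of the olfactory receptor genes and 53.7% of all genes. Of the 7 measured members, 2 had a mean above background, *Mir489* and *Mir505*, and 5 did not, which were *Mir31*, *Mir133b*, *Mir1a-1*, *Mir206* and *Mir29a*.

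**Figure D1:**
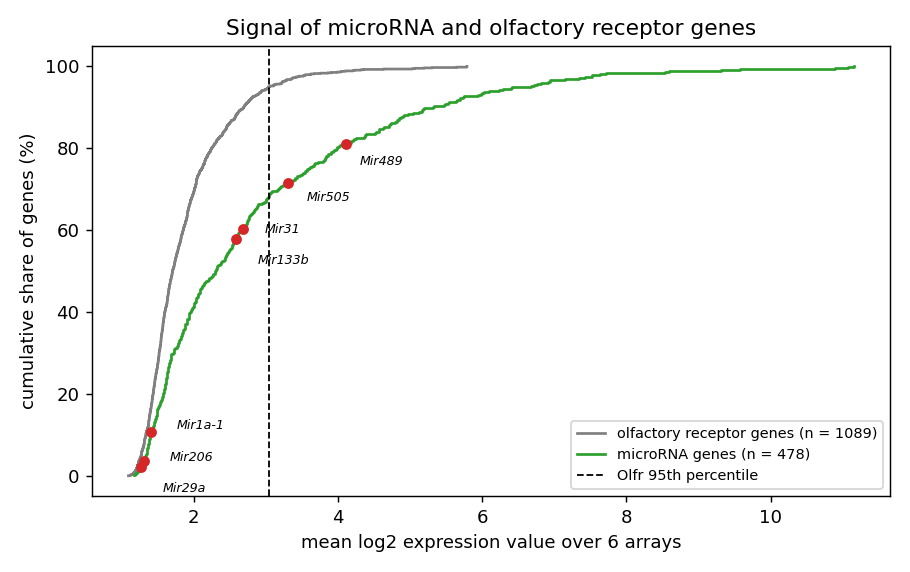
Cumulative share of genes (percent) against the mean log2 expression value over 6 arrays, for 1089 olfactory receptor genes (grey line) and 478 microRNA genes (green line), with the 7 measured members as red points on the green line and the 95th percentile of the olfactory receptor genes (3.04) as a dashed line. *Mir489* and *Mir505* lie to the right of the dashed line and the other 5 members to its left.

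*Mir505* was bright on 2 arrays of 6, both of them *Slug*+/+. Its level was 6.02, 2.47 and 6.09 in *Slug*+/+ replicates 1, 2 and 3, and 1.65, 2.02 and 1.61 in the *Slug*-/- replicates. *Slug*+/+ arrays 1 and 3 stood at the top of the olfactory receptor genes, above 99.9% and 100% of them, and array 2 above 83.7%. The *Slug*-/- arrays stood above 43.6%, 67.2% and 46.1% of them, in the middle of their range.

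The *Mir505* mean was 4.86 ± 2.07 (SD, n = 3) in *Slug*+/+ SCs. That of *Slug*-/- SCs was 1.76 ± 0.23 (SD, n = 3), a difference of -3.10 on the log2 scale. The arrays of the genotypes did not overlap, and the gap between the lowest *Slug*+/+ and the highest *Slug*-/- array was small, since *Slug*+/+ array 2 lay below background too. Raising every value below background up to it gave a difference of -2.01, which is no lower bound, because that array was among those raised. Among the 478 microRNA genes *Mir505* ranked 42nd, 229th and 38th by level in *Slug*+/+ SCs, against 345th, 263rd and 331st in *Slug*-/- SCs. Leaving out 1 array at a time moved the difference between -4.29 and -2.48. The lower of these came without *Slug*+/+ array 2.

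**Figure D2:**
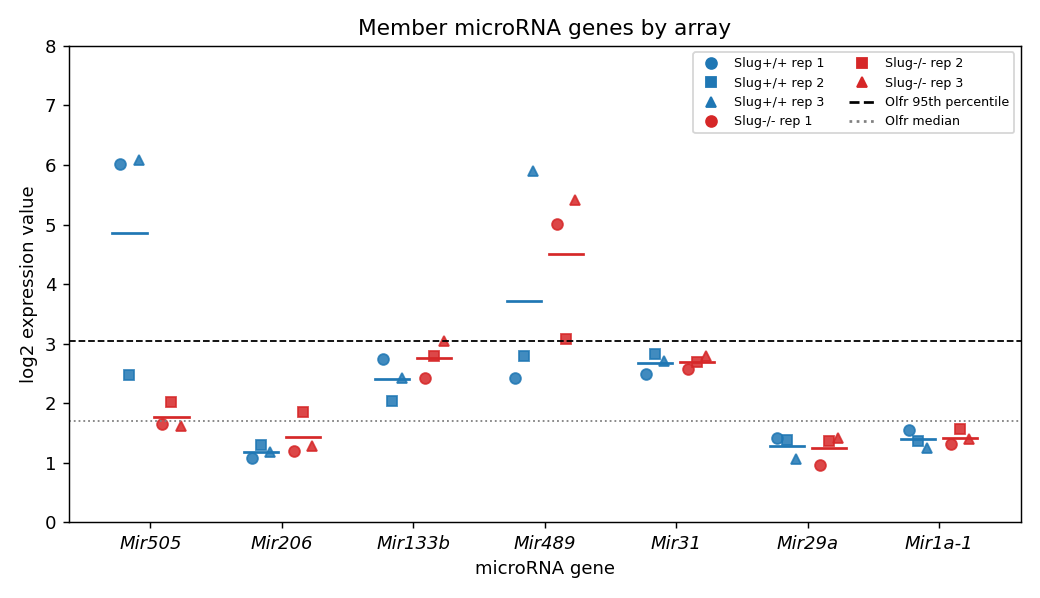
Log2 expression value of the 7 measured members on each of the 6 arrays, with *Slug*+/+ in blue, *Slug*-/- in red, 1 symbol shape per replicate number, a short line at each genotype's mean, and the olfactory receptor median (1.71, dotted) and 95th percentile (3.04, dashed). *Mir505* is above the dashed line on *Slug*+/+ arrays 1 and 3 only, *Mir489* is above it on arrays of both genotypes, and the other members lie near or under it.

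*Mir489*, which is known to hold mouse SCs in quiescence, was the brightest member on average and was bright in both genotypes. Its level was 2.42, 2.80 and 5.91 in *Slug*+/+ and 5.02, 3.08 and 5.41 in *Slug*-/- SCs. The arrays overlapped: the highest of all was *Slug*+/+ array 3, and *Slug*-/- arrays 1 and 3 stood close to it. It stood above 79.2%, 89.5% and 99.9% of the olfactory receptor genes in *Slug*+/+ SCs, and above 99.4%, 94.1% and 99.8% in *Slug*-/- SCs.

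The *Mir489* means were 3.71 ± 1.91 (SD, n = 3) and 4.50 ± 1.24 (SD, n = 3), a difference of 0.79 that is smaller than either SD. Leaving out 1 array moved it from 0.15 without *Slug*+/+ array 1 to 1.89 without *Slug*+/+ array 3. It was 0.34 without *Slug*+/+ array 2 or *Slug*-/- array 3, and 1.5 without *Slug*-/- array 2. Raised to background in the same way, the difference was 0.51. Its host *Calcr*, a G-protein-coupled receptor that marks quiescent SCs, ranged over 0.83 across all arrays, against 3.48 for *Mir489*. Both genes were highest on *Slug*+/+ array 3, and among the *Slug*-/- arrays both were highest on array 3 and lowest on array 2. Their lowest *Slug*+/+ arrays differed, array 2 for *Calcr* and array 1 for *Mir489*, and their genotype differences had opposite signs. *Calcr* was at 7.70, 7.63 and 8.27 in *Slug*+/+ SCs, against 7.56, 7.45 and 7.87 in those of *Slug*-/- mice, a difference of -0.24 (limma, adjusted p = 0.936). The neighbouring *Mir653*, which lies 511 bases from *Mir489* in the same host, was at 2.91, 3.05 and 2.48 and then at 1.23, 1.87 and 3.09, a difference of -0.75 (limma, adjusted p = 0.904). *Mir425*, whose 5p strand has the *Mir489* seed, was at 3.47, 3.64 and 3.91 in *Slug*+/+ and 3.16, 3.81 and 3.09 in *Slug*-/- SCs, a difference of -0.32 (limma, adjusted p = 0.921). Neither host, neighbour nor seed partner passed the test.

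**Figure D3:**
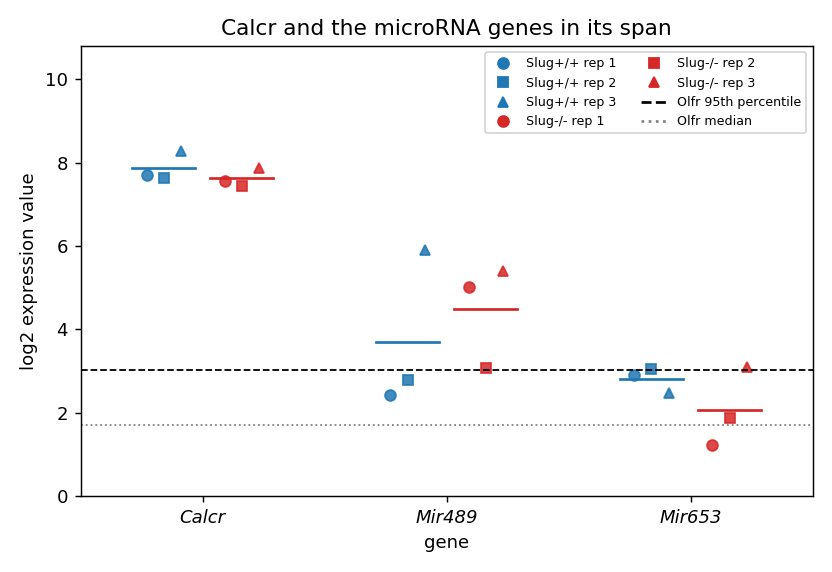
Log2 expression value of *Calcr*, *Mir489* and *Mir653* on each of the 6 arrays, with *Slug*+/+ in blue, *Slug*-/- in red, 1 symbol shape per replicate number, a short line at each genotype's mean, and the olfactory receptor median (dotted) and 95th percentile (dashed). *Calcr* stays between 7.45 and 8.27, while *Mir489* runs from 2.42 to 5.91 and *Mir653* from 1.23 to 3.09.

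The 3 genes best known for muscle differentiation were near or under background in both genotypes. *Mir206*, a microRNA of regenerating fibres, was at 1.07, 1.31 and 1.17 in *Slug*+/+ and 1.19, 1.84 and 1.28 in *Slug*-/- SCs. *Mir133b*, its neighbour 3686 bases away in the long non-coding RNA gene *Lincmd1*, was at 2.75, 2.04 and 2.42, and then at 2.43, 2.80 and 3.04. *Mir1a-1*, whose product acts in cardiac and skeletal muscle, was at 1.56, 1.37 and 1.25, and then at 1.32, 1.56 and 1.39.

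Their differences were 0.25 for *Mir206*, 0.35 for *Mir133b* and 0.03 for *Mir1a-1*, and the arrays of the genotypes overlapped for all of them. *Slug*-/- array 3 of *Mir133b* was the only array of these genes to reach background, at a level just above it. Close to *Mir1a-1*, *Mir133a-2* lies 9254 bases away and was under background on all arrays, at 1.52, 1.82 and 1.56 in *Slug*+/+ and 2.08, 1.94 and 2.39 in *Slug*-/- SCs. Its arrays did not overlap, with a difference of 0.50 (limma, adjusted p = 0.826), which is all within the range of background.

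*Mir31*, which in mouse SCs holds back *Myf5* messages, was at 2.50, 2.83 and 2.70 in *Slug*+/+ and 2.58, 2.69 and 2.79 in *Slug*-/- SCs. *Mir29a*, known to act on collagen messages, was at 1.41, 1.39 and 1.06, and then at 0.96, 1.37 and 1.41. The differences of 0.01 and -0.04 were smaller than the spread between arrays of either genotype. *Mir29b-1*, 275 bases from *Mir29a*, stayed between 1.16 and 1.67. *Ank1*, the gene that holds *Mir486*, was at 4.06, 4.70 and 4.17 in *Slug*+/+ and 3.43, 4.28 and 3.70 in *Slug*-/- SCs (difference -0.50, limma, adjusted p = 0.899). Probe sets differ in how they respond, so the order of signal is not an order of abundance. By the rank of its mean signal among the 478 microRNA genes the order was *Mir489* at 91, *Mir505* at 137, *Mir31* at 191, *Mir133b* at 202, *Mir1a-1* at 428, *Mir206* at 461 and *Mir29a* at 468.

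The spread of *Mir505* and *Mir489* between arrays of 1 genotype was wide. Within *Slug*+/+ the *Mir505* arrays ranged over 3.62, the 17th widest of 22180 genes and the 8th widest of the microRNA genes, and those of *Mir489* over 3.48, the 10th widest of the microRNA genes. A range of 3 or more within either genotype occurred in 25 of 478 microRNA genes (5.23%), 78 of all 22180 genes (0.352%) and 0 of 1089 olfactory receptor genes, so that microRNA genes made up 32.1% of those 78. Signal above background on some arrays but not all was seen in 26.4% of microRNA genes, 10.2% of olfactory receptor genes and 19.3% of all genes. What sets the spread was not tested.

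**Figure D4:**
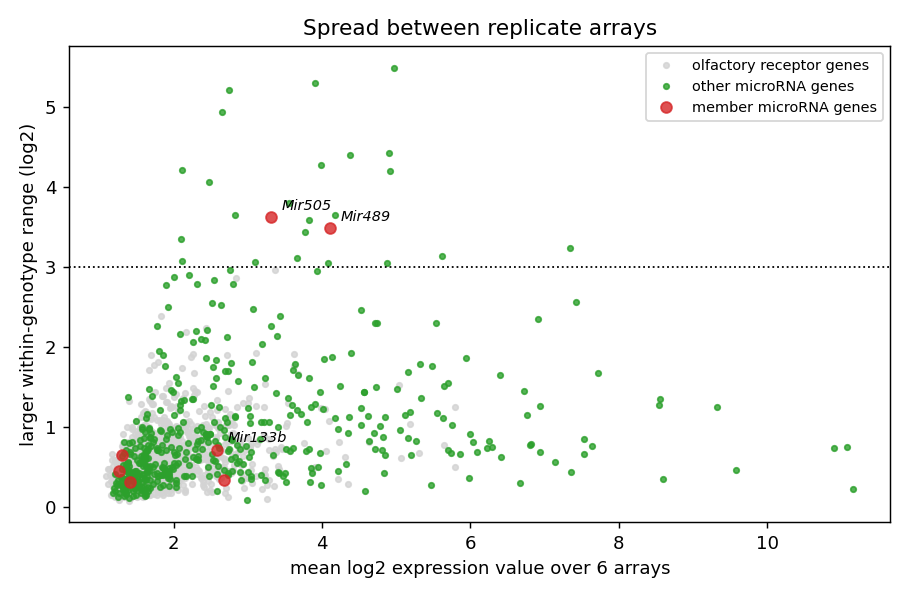
Larger of the 2 within-genotype ranges (log2, over 3 arrays each) against the mean log2 expression value over 6 arrays, 1 point a gene, for olfactory receptor genes (grey), other microRNA genes (green) and the 7 measured members (red), with a dotted line at a range of 3. *Mir505* and *Mir489* are among the 25 microRNA genes above the line, and 0 olfactory receptor genes lie above it.

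The comparison over all genes gives the background for these counts. When a gene was called at more than a 2-fold change with an unadjusted p below 0.05 (limma), 130 of 22180 genes were higher (0.586%) and 69 lower (0.311%) in *Slug*-/- SCs, and 0 passed at an adjusted p of 0.05, with 1286 at an unadjusted p under 0.05. The arrays of the genotypes did not overlap in 1162 genes that were higher (5.24%) and 1197 that were lower (5.4%). *Mir505* lies among the latter, and since it was chosen by this contrast nothing is read from its place.

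Of the 471 other microRNA genes, 4 were higher (0.849%) and 3 lower (0.637%) by the same rule, beside 0.586% and 0.311% of all genes, and 0 passed at an adjusted p of 0.05. Those at an unadjusted p under 0.05 numbered 23. Genotypes did not overlap in 19 that were higher (4.03%) and 30 that were lower (6.37%), and the median difference was -0.05. *Mir1941* was at 1.97, 2.27 and 2.66 in *Slug*+/+ and 5.42, 5.71 and 4.07 in *Slug*-/- SCs, a difference of 2.76 (SE 0.42, limma, adjusted p = 0.435), with all *Slug*-/- arrays above all *Slug*+/+ arrays. *Mir99a*, whose products include a regulator of mTOR, was at 2.79, 4.22 and 2.30, and then at 6.04, 6.04 and 4.95, a difference of 2.57 (SE 0.52, limma, adjusted p = 0.706). *Mir1949* was at 2.46, 3.46 and 1.07, and then at 4.74, 4.16 and 4.72, a difference of 2.21 (SE 0.54, limma, adjusted p = 0.732). These did not overlap between genotypes and passed the fold and unadjusted p in every alternative run. *Mir1941* was under background on all *Slug*+/+ arrays and the others on some of them. With values raised to background the differences were 2.03 for *Mir1941*, 2.24 for *Mir99a* and 1.36 for *Mir1949*. *Mir493* was at 6.24, 5.78 and 7.04, and then at 7.34, 7.36 and 7.91, a difference of 1.18 (SE 0.34, limma, adjusted p = 0.792), and fell short of the fold without *Slug*+/+ array 2, at 0.90, or *Slug*-/- array 3. The count of 7 rose to 11 without any 1 *Slug*+/+ array and to 15 without *Slug*-/- array 2, while that over all genes rose from 199 to 391 without *Slug*+/+ array 3 and to 325 without *Slug*-/- array 2.

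The 3 lower ones each had 1 or more arrays of the other genotype inside their range. *Mir18*, of the Mir17 to Mir92 cluster known for cell growth, was at 2.25, 5.32 and 4.45 in *Slug*+/+ and 2.57, 1.95 and 2.0 in *Slug*-/- SCs, a difference of -1.83 (SE 0.69, limma, adjusted p = 0.826). *Mir3089* was at 4.92, 4.04 and 5.87, and then at 2.63, 4.50 and 2.85, a difference of -1.61 (SE 0.60, limma, adjusted p = 0.825). *Mir193b* was at 3.30, 5.01 and 4.58, and then at 2.80, 3.40 and 2.54, a difference of -1.38 (SE 0.44, limma, adjusted p = 0.823). Without *Slug*+/+ array 3, *Mir18*, *Mir3089* and *Mir193b* all lost the call, with differences of -1.61, -1.15 and -1.24, and each lost it without at least 2 other arrays as well. All of them also lost it with values raised to background, at -1.23, -1.42 and -1.14, and *Mir3089* lost it with the replicate number as a block (unadjusted p = 0.0541, limma).

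**Figure D5:**
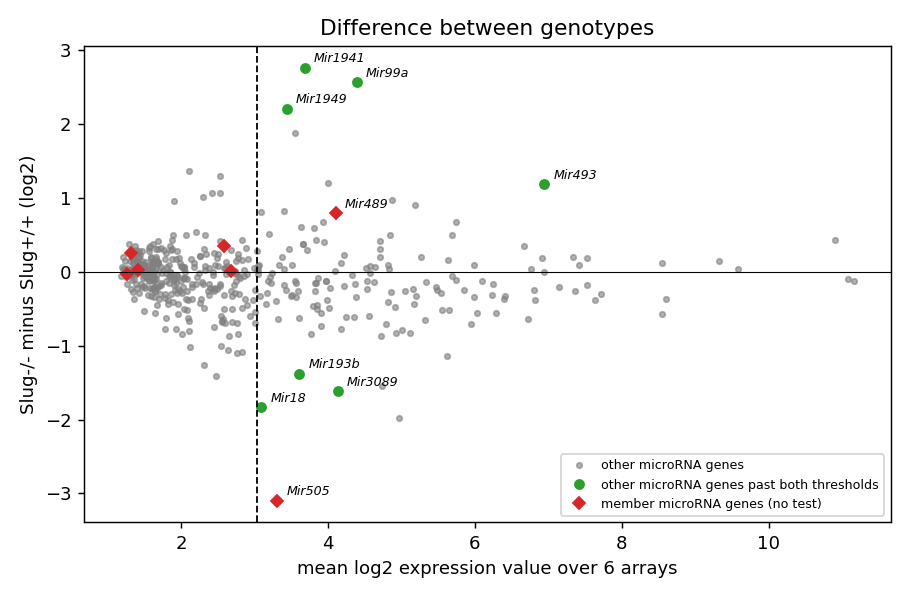
Difference in log2 expression value, *Slug*-/- minus *Slug*+/+, against the mean over 6 arrays for 478 microRNA genes, with the 7 measured members as red diamonds, the 7 other microRNA genes past the fold and unadjusted p in green, and a dashed line at background (3.04). *Mir505* has the lowest value, at -3.10, and *Mir1941* the highest, at 2.76.

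Likeness to *Mir505* over the 6 arrays is given as Pearson's r, a description over 6 arrays that share their preparation, among genes whose levels ranged over at least 2. Of 68 microRNA genes the closest were *Mir3089* (r = 0.845), *Mir337* (r = 0.826) and *Mir3070b* (r = 0.718). Of 860 other genes, r exceeded 0.95 in 1 and 0.90 in 3. The closest was *Sytl5*, a synaptotagmin-like gene on the same chromosome as *Mir505*, at r = 0.975, with levels of 4.12, 2.51 and 3.59 in *Slug*+/+ and 2.24, 2.28 and 2.02 in *Slug*-/- SCs. *Dhrs3*, a retinal reductase on chromosome 4, followed at r = 0.941 and was much brighter, at 7.79, 6.68 and 8.23, and then at 5.87, 6.22 and 5.11. *Moxd1*, a monooxygenase on chromosome 10, was at r = 0.910, with 4.69, 3.30 and 5.26, and then 2.54, 3.77 and 3.41. Since *Mir505* was chosen by the genotype contrast, genes picked for likeness to it tend to share that contrast, and nothing is read from it. Whether any of these genes is linked to *Mir505* was not tested.

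Of 50 other muscle-related microRNA genes 31 were measured and 9 lay above background, beside 31.8% of all 478 microRNA genes. By the fold and unadjusted p 0 passed, beside 0.849% higher and 0.637% lower of the 471 other microRNA genes, which include these. *Mir27a* was the brightest, at 8.72, 7.70 and 9.05 in *Slug*+/+ and 8.83, 8.38 and 8.63 in *Slug*-/- SCs. *Mir23a*, which shares its cluster, was at 8.11, 5.19 and 8.42, and then at 7.65, 6.87 and 7.80. *Slug*+/+ array 2, where *Mir505* was dim, was also the lowest array for both. *Mir23b*, at 2.41, 5.04 and 2.73, and then at 6.69, 2.42 and 4.66, moved in another way. *Mir15a*, *Mir128-2* and *Mir143* had means of 4.52, 4.25 and 3.66 over all arrays.

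The genes that make and use microRNAs did not pass the test in either direction. Of 25 listed, 23 were measured and 21 lay above background, and 0 passed at an unadjusted p under 0.05 or with adjustment. Over all genes 1286 of 22180 passed that unadjusted p, and 0.586% were higher and 0.311% lower by the fold and p. At such shares a count of 0 among 23 genes is not read as a result about them. The 14 higher and 9 lower had a median difference of 0.10, against -0.01 over all genes. *Drosha*, the nuclear enzyme that makes the first cut, was at 5.91, 5.42 and 5.83 in *Slug*+/+ and 4.54, 5.55 and 5.13 in *Slug*-/- SCs (difference -0.65, limma, adjusted p = 0.868). *Ago1*, which holds the mature strand, differed by 0.49 (adjusted p = 0.904, limma), *Tnrc6c*, a silencing partner of Argonaute proteins, by 0.33 (adjusted p = 0.904, limma), and *Ran*, which drives export of precursors, by 0.40 (adjusted p = 0.908, limma).

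Of 40 known targets of the members 35 were measured and 32 lay above background. A positive difference was found in 23 and a negative one in 12, with a median of 0.10, against -0.01 over all genes. By the fold and unadjusted p, 1 was higher and 0 lower, beside 0.586% and 0.311% of all genes. The 1 was *Cdk6*, a cyclin-dependent kinase and target of miR-29, at 1.92, 1.70 and 2.05 in *Slug*+/+ and 4.21, 2.22 and 4.07 in *Slug*-/- SCs, a difference of 1.61 (limma, adjusted p = 0.823). Its *Slug*+/+ arrays all lay under background, and with values raised to background the difference was 0.74 and the call was lost. The count of 1 became 2 without *Slug*+/+ array 2, and 3 without *Slug*+/+ array 3 or *Slug*-/- array 2. *Snai1*, a close relative of Slug that miR-133 is known to lower in heart cells of mice, was at 2.87, 3.21 and 3.20, and then at 4.04, 3.72 and 4.42, with no overlap, a difference of 0.97 (limma, adjusted p = 0.726). *Igf1*, a growth factor and target of miR-1 and miR-206, differed by 0.92 (limma, adjusted p = 0.792) and *Col4a1*, a basement membrane collagen and target of miR-29, by 0.52 (limma, adjusted p = 0.826). The 1 listed target of *Mir505*, the splicing factor gene *Srsf1*, was at 5.03, 5.41 and 5.95, and then at 5.74, 4.99 and 5.94, a difference of 0.09. *Dek*, the 1 listed target of *Mir489* and a chromatin protein gene, was at 5.66, 5.10 and 5.64, and then at 5.66, 5.55 and 5.12, a difference of -0.02. Neither of these targets passed the test.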

How the data were processed

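RNA of 3 *Slug*+/+ and 3 *Slug*-/- SC samples was labelled by the authors for Affymetrix Mouse Gene 2.0 ST arrays and processed in Gene Expression Console. Its algorithm was not given in the sources used here. Each probe set has 1 deposited log2 value on each array, and each array entered the fit as 1 sample. Of 41345 probe sets, 23521 carried 1 symbol, which gave 22180 genes. Differences were fitted with limma 3.58.1 in R 4.3.3 (lmFit and eBayes, 1 mean per genotype, p-values of Benjamini-Hochberg over all genes) and the steps were tested on simulated data. A gene was called at a fold over 2 with an unadjusted p under 0.05. The microRNA genes, lists and tests were chosen with earlier results of these data known. Named besides the members were their hosts, the 3 microRNA and 3 other genes most like *Mir505*, up to 5 other microRNA genes called in each direction, the 4 machinery and 4 target genes with the smallest p and the 6 brightest related microRNA genes. Neighbours and seed partners, *Lum*, *Srsf1*, *Dek* and *Cd68* were added for their place or values. Alternatives were other normalizations, probe set means, a filter or floor at background, a trend in limma, a replicate block and each array left out.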

Additional observations from a re-analysis of the deposited data

How the results depend on the processing

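Calls over all genes, 199 in all, ran from 248 to 391 when 1 array was left out, with 391 without *Slug*+/+ array 3 and 325 without *Slug*-/- array 2. For other microRNA genes, 7 called became 9 to 15, with 11 without any 1 *Slug*+/+ array and 15 without *Slug*-/- array 2, and 11 with a trend in limma. Target genes called went from 1 to between 1 and 3 on leaving out 1 array, with 2 without *Slug*+/+ array 2 and 3 without *Slug*+/+ array 3 or *Slug*-/- array 2. They were 2 with array medians subtracted and 0 among genes above background. Machinery genes called stayed at 0. The *Mir505* difference of -3.10 ran from -4.29 to -2.48 on leaving out 1 array. The other settings gave 192 to 220 calls over all genes, with 163 higher and 56 lower after subtracting array medians against 130 and 69. With a replicate block 225 genes were called over all genes, 10 of them other microRNA genes, 1 a target and 0 machinery, and the *Mir505* difference was -3.10. To look for pairing, the mean of its genotype was subtracted from every gene on each array. The remaining deviations of same-numbered arrays correlated across the genotypes at 0.029, 0.019 and 0.135. By these deviations 1 of 3 *Slug*+/+ arrays, array 3, correlated best with its own number. Within each genotype array 3 also had the lowest median over all probe sets, 2.909 in *Slug*+/+ and 2.866 in *Slug*-/-. Whether same-numbered samples were prepared together is not stated by the labels and was not tested. Precision is limited by 3 arrays a genotype, and 5 of the 7 measured members had signals under background.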

Other observations

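The microRNA genes between *Dlk1* and *Dio3* on chromosome 12 (chr12:109540996-110281097, GRCm38.p6), an imprinted region whose non-coding transcripts come from the maternal copy, were described after their values were seen. Of 43 such genes 25 (58.1%) had a mean above background, 17 on all 6 arrays, 17 on some and 9 on none. The non-coding RNA *Meg3* stayed between 5.26 and 5.55 and *Rian* between 7.15 and 8.55 over the arrays. By the fold and unadjusted p 1 of the 43, *Mir493*, was higher in *Slug*-/- SCs and 0 were lower, with 3 at an unadjusted p under 0.05 and 0 with adjustment. Over the 471 other microRNA genes, which include these, 0.849% were higher and 0.637% lower, and over all genes 0.586% and 0.311%. The 16 positive and 27 negative differences had a median of -0.22, against -0.05 over the 471. A range of 3 or more within a genotype was found in 9 of the 43, beside 4.88% of the 471. *Mir300* was an example, at 7.002, 5.07 and 5.81 in *Slug*+/+ and 2.20, 2.13 and 7.62 in *Slug*-/- SCs.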
